A study of Mus musculus with 8 samples.

Results

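The genes described here are 38 members of the autophagy and lysosome machinery, listed by symbol and grouped by the step they serve: 8 in initiation and nucleation, 7 conjugation enzymes, 5 LC3 and GABARAP proteins, 7 cargo receptors and mitophagy genes, 9 lysosomal proteins and 2 transcription factors. Rows were found by gene symbol, with the highest-mean row kept where a symbol had several. Of the 38, 37 had a row among the 38741 symbols of the table, and the level of Map1lc3b was not analysed here. All 37 had a mean of at least 1 FPKM (reads relative to a gene's exon length and the library's mapped total, a level that can be compared between genes), so all 37 were among the 11118 genes tested.

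The study compared gastrocnemius, the large calf muscle, of 4 wild-type male mice (WT1 to WT4, aged 9 to 10 weeks, 22 to 25 g) with that of 4 males homozygous for the Bcat2tm1.2Clyn allele (KO5 to KO8, 10 to 11 weeks, 15 to 24 g), both on a C57BL6 background. The protein of Bcat2, BCATm, sits in mitochondria and removes the amino group of branched-chain amino acids, the step that opens their breakdown. All mice and their dams had a choice of 2 foods, a standard chow and a purified food that lacks branched-chain amino acids. Homozygous mice carry the allele in every tissue and not in muscle alone. Isoflurane was given before the muscle was removed.

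Autophagy delivers cytoplasm and organelles to lysosomes for breakdown. In muscle it is held down by amino acids and insulin through the kinase mTORC1 and is turned up in fasting and atrophy, when freed amino acids feed other tissues. A kinase complex starts the process, a lipid kinase complex marks the membrane, ubiquitin-like conjugation attaches LC3 and GABARAP proteins to it, receptors bring in the cargo, and lysosomal enzymes digest it.

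Bcat2 itself separated the genotypes. It read 83.0, 42.7, 46.0 and 41.2 FPKM in WT1 to WT4 and 2.89, 5.26, 2.91 and 2.09 FPKM in KO5 to KO8, a log2 change of -3.65 ± 0.28 (SE; limma with Benjamini-Hochberg adjustment, adjusted p = 0.00245). The 9 of 10 listed muscle fibre markers with a row summed to between 83904 and 125996 FPKM, mostly from a few very abundant genes. One of them, the fast myosin Myh1, was listed at 0 in KO7 and read 107.7, 84.7 and 60.9 FPKM in KO5, KO6 and KO8, against 110.2 to 244.9 FPKM in wild type. Depth relative to WT2 ran from 0.437 to 1.23. The 8 slow-fibre markers summed to 254.6 to 1219 FPKM in wild type and 472.3 to 1631 FPKM in knockouts, lowest in WT2 and highest in KO5. Other tissue was uneven: 8 adipocyte markers summed to 9156 FPKM in WT1 and 3920 FPKM in KO6, against 916 to 1561 FPKM in the other mice. In those other mice most of the sum was Car3, at 772.4 to 1274 FPKM. Adipoq read 674.1, 11.4, 15.4 and 4.49 FPKM in WT1 to WT4 and 49.9, 310.7, 23.3 and 27.6 FPKM in KO5 to KO8. Every knockout exceeded WT2, WT3 and WT4 for Adipoq, Plin1, Cfd and Retn, but not for Lep, Cidec, Car3 or Pck1. The 5 keratin genes summed to 468 FPKM in KO6, against at most 2.61 FPKM elsewhere. The 5 endothelial markers summed to 40.7 to 69.0 FPKM in the wild types and 24.7 to 47.1 FPKM in the knockouts. In bulk tissue, fewer cells of a type and less RNA per cell cannot be told apart.

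None of the 37 autophagy and lysosome genes passed the test between genotypes, at an adjusted p of 0.05 over all genes, where 0.027% of all tested genes passed (3 genes; 0.00899% higher and 0.018% lower in knockouts). At an unadjusted p under 0.05 the count was also 0 of 37, against 10.3% of all tested genes. In no member did the 4 knockouts lie wholly above or wholly below the 4 wild types, against 6.75% of all tested genes. The smallest exact permutation p of a member, 2-sided over the 35 splits of 8 mice, was 0.0571, and the smallest that these splits allow is 0.0286. The authors' deposited table flags 8 members at its own p under 0.05 (Map1lc3a, Sqstm1, Bnip3, Pink1, Lamp1, Ctsb, Ctsa and Gaa), against 20.2% of the tested genes; the labels and headers used here do not say how that p was computed.

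The intervals set how large a change could have gone unseen. Log2 changes, knockout minus wild type on the log2(FPKM + 1) scale, ran from -0.46 for Ctsa to 0.44 for Bnip3. The 95% interval of a member reached a median of 0.45 to either side. For 36 of 37 members it lay wholly within a log2 change of 1 in either direction on this scale. Ctsl, whose interval reached 1.07, was the exception. These bounds hold for FPKM as deposited and shift with the scaling of the libraries. With the median-ratio scaling described below, the log2 change of Bnip3 was 0.59. The added 1 shrinks changes at low levels, so for the scarcer members these bounds are not fold limits on FPKM. Tfe3, at -0.38, was at -0.51 with 0.1 added in place of 1. Means on the log2 scale, which all counts of higher and lower members use, were higher in knockouts for 13 members and lower for 24, with a median log2 change of -0.09, beside -0.12 over all tested genes.

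That split depended on the scaling of the libraries. With median-ratio scaling, which divides each library by its median ratio to a common reference, the all-gene median moved from -0.12 to -0.0020 and the members split into 23 higher and 14 lower. With that scaling, 6 members had an unadjusted p under 0.05, against 11.9% of all tested genes: Atg5, Becn1, Bnip3, Lamp2 and Map1lc3a on the higher side and Ctsa on the lower. Their smallest adjusted p was 0.412. The members that moved from below to above 0 were Ulk2, Atg13, Atg16l1, Gabarapl1, Sqstm1, Optn, Bnip3l, Lamp1, Hexa and Tfeb. No direction is therefore given for the group as a whole.

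**Figure D1:**
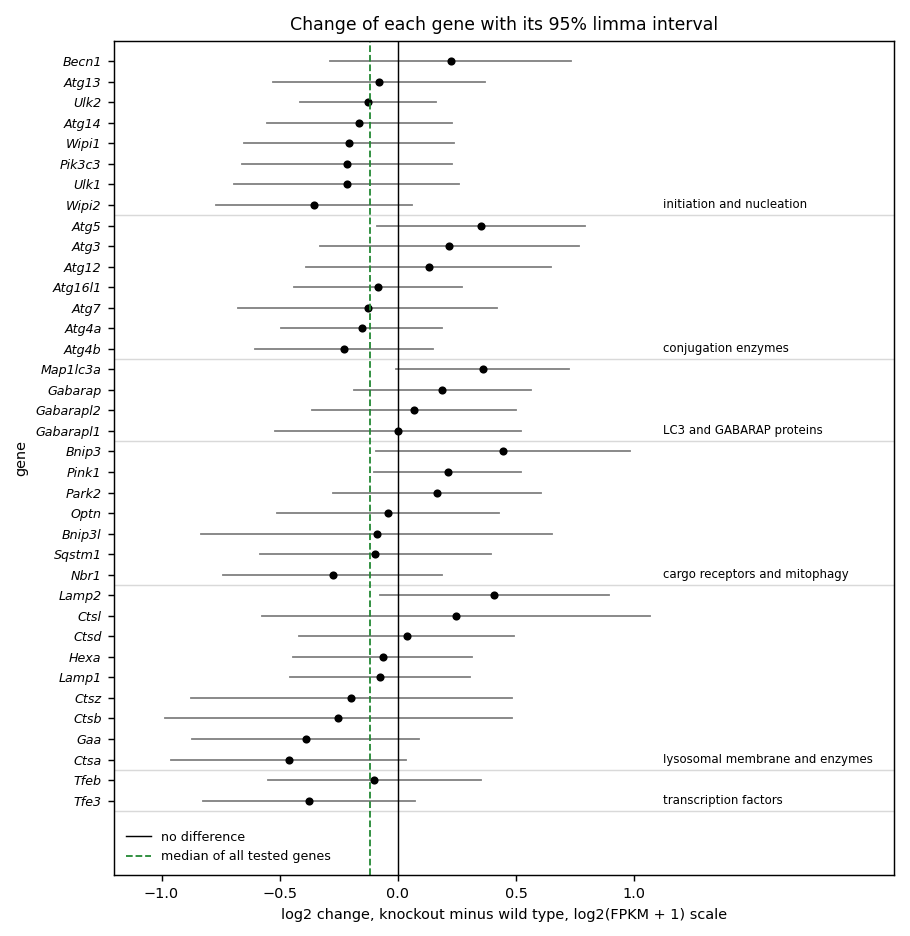
Log2 change (knockout minus wild type, log2(FPKM + 1) scale) of each of the 37 genes, grouped by step, with its 95% limma interval; the dashed line is the median of all tested genes, -0.12. Every interval crosses 0, and the point estimates run from -0.46 (Ctsa) to 0.44 (Bnip3).

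In the initiation step, the kinases Ulk1 and Ulk2 and their partner Atg13 start the process, Becn1, Pik3c3 and Atg14 belong to the lipid kinase complex, and Wipi1 and Wipi2 bind the lipid it makes. Of the 8 means, 7 were lower in knockouts and 1 was higher, and none passed. With median-ratio scaling Ulk2 and Atg13 moved to above 0, at 0.02 and 0.05. Wipi2 (ENSMUSG00000029578, chromosome 5, 142629542 to 142670588, mm10) had the smallest p of the step. It read 7.00, 6.90, 9.05 and 6.70 FPKM in WT1 to WT4 and 7.08, 5.77, 6.00 and 3.79 FPKM in KO5 to KO8. KO5 lay among the wild types and the other knockouts lay below them. The log2 change was -0.35 ± 0.18 (SE; limma, p = 0.0849, adjusted p = 0.487; exact permutation p = 0.114).

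Becn1 (ENSMUSG00000035086, chromosome 11, 101285952 to 101302286), the scaffold of the lipid kinase complex, was at the highest mean level of the step. It read 25.0, 16.5, 24.8 and 18.8 FPKM in WT1 to WT4 and 29.8, 32.4, 20.4 and 18.6 FPKM in KO5 to KO8. KO5 and KO6 exceeded every wild type, while KO7 and KO8 lay within the wild-type range. This gave a log2 change of 0.22 ± 0.22 (SE; limma, p = 0.344, adjusted p = 0.645; exact permutation p = 0.429). Its exons share 43.9% of their bases with Cntd1 on the opposite strand, and no strand setting is in the labels used here, so reads of the 2 genes may not be separated. The lower-level genes of this step were Pik3c3 at 4.00 ± 0.764 and 3.35 ± 1.02 FPKM and Atg14 at 2.196 ± 0.325 and 1.87 ± 0.431 FPKM in wild types and in knockouts (SD, n = 4 each).

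Among the conjugation enzymes, Atg7 is the E1-like enzyme, Atg3 the E2-like enzyme for LC3, Atg12, Atg5 and Atg16l1 form the complex that directs LC3 to the membrane, and the proteases Atg4a and Atg4b prepare LC3 and its relatives for attachment. Means of 3 enzymes were higher in knockouts (Atg3, Atg5 and Atg12) and those of 4 lower (Atg4a, Atg4b, Atg7 and Atg16l1). Atg16l1 changed side with median-ratio scaling, at 0.04. Atg5 (ENSMUSG00000038160, chromosome 10, 44268358 to 44364291) had the smallest p. It read 11.7, 9.67, 6.78 and 9.95 FPKM in the wild types and 13.2, 15.5, 10.4 and 10.5 FPKM in the knockouts. Every knockout exceeded WT2, WT3 and WT4, and WT1 lay above KO7 and KO8. On the log2 scale the change was 0.35 ± 0.19 (SE; limma, p = 0.103, adjusted p = 0.495; exact permutation p = 0.143).

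Atg3 (ENSMUSG00000022663, chromosome 16, 45158785 to 45188538) had the highest mean of the enzymes. Its values were 20.4, 14.6, 12.7 and 15.7 FPKM in the wild types and 22.6, 25.7, 14.2 and 13.5 FPKM in the knockouts, so KO5 and KO6 stood above the wild types and KO7 and KO8 among them. The log2 change was 0.22 ± 0.24 (SE; limma, p = 0.391, adjusted p = 0.679; exact permutation p = 0.400). The same ordering of the 4 knockouts, with KO5 and KO6 over KO7 and KO8, held for Atg12, at 21.8, 18.1, 11.6 and 12.5 FPKM.

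**Figure D2:**
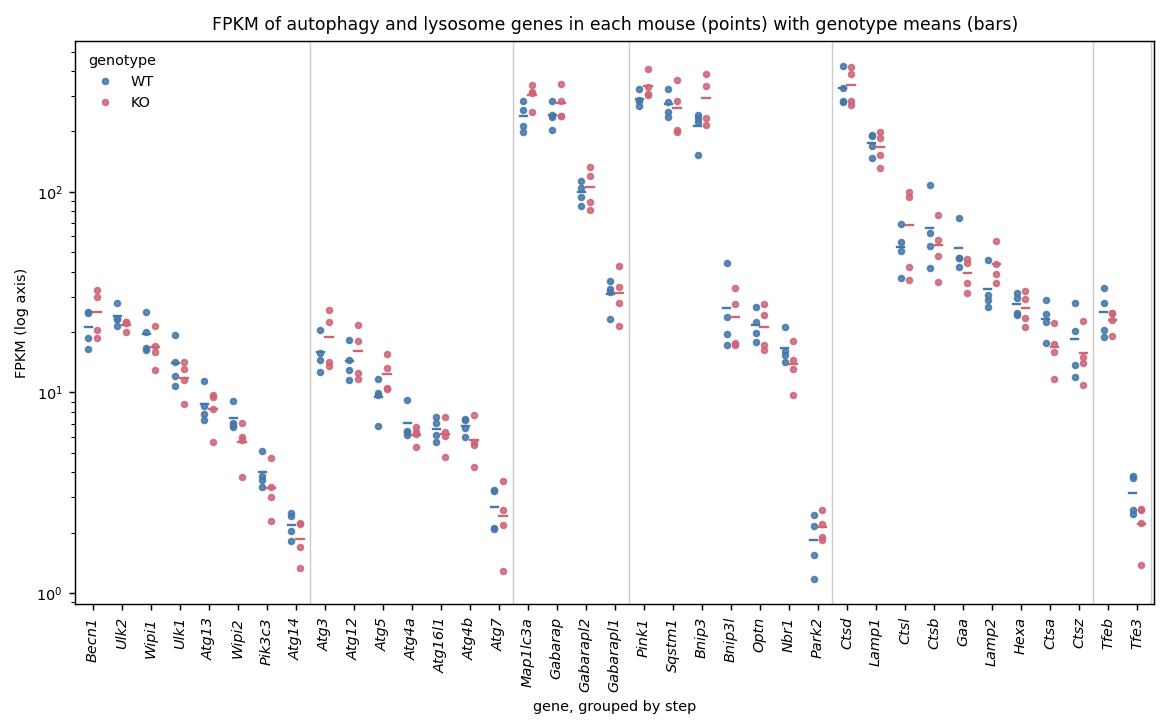
FPKM on a log axis of the 37 genes in each mouse (points, wild type in blue and knockout in red) with the mean of each genotype (bars), grouped by step and ordered by mean. Levels run from about the filter of 1 FPKM (Park2, Atg14) to 422.3 FPKM (Ctsd in WT1), and the points of the genotypes overlap for every gene.

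The LC3 and GABARAP proteins, which coat the growing membrane and hold the receptors, were among the most abundant of these transcripts. Map1lc3a and Gabarap averaged 237.8 and 241.5 FPKM in wild type, Gabarapl2 99.6 FPKM and Gabarapl1 30.9 FPKM. The means of 3 of the 4 were higher in knockouts, and the log2 change of Gabarapl1 was -0.0011, with levels of 30.9 ± 5.44 and 31.4 ± 9.08 FPKM (SD, n = 4 each). Map1lc3a (ENSMUSG00000027602, chromosome 2, 155276297 to 155278073) had the smallest p of all 37 members and the highest mean of this step. It read 255.7, 284.8, 197.7 and 213.2 FPKM in WT1 to WT4 and 314.9, 339.4, 310.5 and 250.5 FPKM in KO5 to KO8. KO5, KO6 and KO7 exceeded every wild type, and KO8 lay below WT1 and WT2. This gave a log2 change of 0.36 ± 0.16 (SE; limma, p = 0.0541, adjusted p = 0.484; exact permutation p = 0.0857), a 1.28-fold difference with a 95% interval of 0.995 to 1.65.

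The cargo receptors Sqstm1 (p62), Nbr1 and Optn bind ubiquitinated cargo, Bnip3 and Bnip3l are mitophagy receptors in the outer mitochondrial membrane, and Pink1 and Park2 (parkin) mark damaged mitochondria. Means were higher in knockouts for Bnip3, Pink1 and Park2 and lower for the other 4, of which Bnip3l, Optn and Sqstm1 were at most 0.10 below 0. Bnip3 (ENSMUSG00000078566, chromosome 7, 138890836 to 138909519) had the smallest p of the step. It read 232.3, 242.5, 152.3 and 222.2 FPKM in WT1 to WT4 and 388.3, 336.4, 215.2 and 233.7 FPKM in KO5 to KO8. KO5 and KO6 stood clear of all wild types, whereas KO7 and KO8 lay within their range. On the log2 scale the change was 0.44 ± 0.23 (SE; limma, p = 0.0928, adjusted p = 0.488; exact permutation p = 0.229). A noncoding gene on the opposite strand, Gm45507, shares 22.3% of its exon bases.

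Pink1 (ENSMUSG00000028756, chromosome 4, 138313409 to 138326307) had the highest mean of the step. It read 268.1, 284.8, 324.9 and 285.9 FPKM in the wild types and 410.4, 331.4, 303.8 and 308.3 FPKM in the knockouts. Every knockout exceeded WT1, WT2 and WT4, and WT3 lay above KO7 and KO8. The log2 change was 0.21 ± 0.14 (SE; limma, p = 0.160, adjusted p = 0.534; exact permutation p = 0.0857). Sqstm1 was at a similar level, at 273.8 ± 39.9 FPKM in the wild types and 262.1 ± 76.2 FPKM in the knockouts (SD, n = 4 each), with KO5 the highest of the 8 mice at 360.7 FPKM and KO8 the lowest at 199.9 FPKM. Park2, which had several rows, was the least abundant member by its highest-mean row, at 1.83 ± 0.575 and 2.14 ± 0.344 FPKM. Its log2 change was 0.17 with that row and 0.09 with its rows summed.

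WT3 had a pattern of its own among the mitophagy receptors. Its Bnip3 was the lowest and its Bnip3l the highest of the 8 mice, at 152.3 and 44.4 FPKM, so that Bnip3 was 3.43 times Bnip3l there, against 9.80 to 14.1 times in the other 7 mice. This ratio, like those that follow, was chosen after its values were seen.

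Of the lysosomal proteins, Lamp1 and Lamp2 line the membrane, the cathepsins Ctsb, Ctsd, Ctsl and Ctsz are proteases, Ctsa is a carboxypeptidase that also protects other enzymes, Gaa breaks down glycogen and Hexa glycolipids. Means were higher in knockouts for Lamp2, Ctsl and Ctsd and lower for the other 6. Ctsa (ENSMUSG00000017760, chromosome 2, 164832873 to 164841032) had the smallest p of the step and the smallest permutation p of all members. It read 24.5, 17.6, 28.9 and 22.5 FPKM in WT1 to WT4 and 17.5, 22.1, 16.0 and 11.6 FPKM in KO5 to KO8. KO5, KO7 and KO8 lay below every wild type and KO6 above WT2. This gave a log2 change of -0.46 ± 0.22 (SE; limma, p = 0.0643, adjusted p = 0.484; exact permutation p = 0.0571). Pltp on the opposite strand shares 10.5% of its exon bases.

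Ctsd (ENSMUSG00000007891, chromosome 7, 142371148 to 142388038), the main lysosomal aspartic protease, was the most abundant member. Its values were 422.3, 281.3, 329.9 and 284.7 FPKM in the wild types and 418.5, 385.9, 269.96 and 283.5 FPKM in the knockouts, with both genotypes spread over the same range. On the log2 scale the change was 0.04 ± 0.20 (SE; limma, p = 0.858, adjusted p = 0.945; exact permutation p = 0.971), and its sign changed with quantile scaling, at -0.11. A second gene model on the same strand, Gm49369, shares 34.4% of its exon bases.

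Lamp2 and Gaa, chosen after their values were seen, came next in size of change. Lamp2 (chromosome X, 38401357 to 38456454), whose deficiency causes Danon disease of heart and muscle, read 45.5, 30.7, 26.5 and 28.8 FPKM in WT1 to WT4 and 43.7, 56.9, 38.9 and 35.3 FPKM in KO5 to KO8. All knockouts exceeded WT2, WT3 and WT4, and WT1 lay above 3 of them. WT1 and KO6, the highest mouse of each genotype for Lamp2, were also those with the raised adipocyte sums. The log2 change was 0.41 ± 0.21 (SE; limma, p = 0.0886, adjusted p = 0.487; exact permutation p = 0.143). It was 0.57 without WT1, 0.28 without KO6 and 0.44 without both (limma adjusted p = 0.416, 0.505 and 0.453). Lamp1 did not share this order: the ratio of Lamp2 to Lamp1 was 0.240, 0.209, 0.138 and 0.170 in wild type and 0.237, 0.287, 0.255 and 0.268 in knockouts, where WT1 and KO5 were the pair that overlapped.

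Gaa (chromosome 11, 119267887 to 119285454), the acid alpha-glucosidase lacking in Pompe disease, read 42.0, 46.9, 73.7 and 46.8 FPKM in WT1 to WT4 and 44.2, 35.1, 46.1 and 31.4 FPKM in KO5 to KO8. WT3 stood far above all other mice, and KO6 and KO8 lay below every wild type. This gave a log2 change of -0.39 ± 0.21 (SE; limma, p = 0.0981, adjusted p = 0.491; exact permutation p = 0.143).

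Ctsb and Ctsz were highest in WT1, at 107.9 and 28.0 FPKM, and Ctsl in KO6, at 99.6 FPKM. Macrophages are rich in these proteases. The 13 macrophage markers with a row summed to 310.1 FPKM in WT1 and 456.2 FPKM in KO6, against 143.0 to 205.9 FPKM in the other 6 mice, with no marker at 0 in any mouse. Lyz2 was the largest part of the sum, at 157.2 FPKM in WT1 and 287.2 FPKM in KO6. The list includes a cathepsin, Ctss, at 14.1 and 32.4 FPKM there. Cd163, Csf1r and Emr1 did not place both of these mice above WT3. All other markers with a row were highest in WT1 and KO6. KO5, with a sum of 205.9 FPKM, had Ctsl at 94.0 FPKM, close to KO6. The part of macrophage RNA in the cathepsin values was not tested. With WT1 and KO6 both left out, none of the 37 members passed, 2 had an unadjusted p under 0.05, 5.41% against 10.4% of all tested genes, and 7 had genotypes that did not overlap, 18.9% of members against 19.4% of all tested genes. Those 7 were Atg5 and Lamp2, higher in knockouts, and Ulk2, Pik3c3, Atg4b, Ctsa and Gaa, lower.

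TFEB and TFE3 are the transcription factors that switch on lysosomal and autophagy genes when mTORC1 is low, and their activity is set largely by their location in the cell, which transcript levels do not show. Tfe3 (ENSMUSG00000000134, chromosome X, 7762560 to 7775202) read 3.72, 2.47, 3.85 and 2.603 FPKM in WT1 to WT4 and 2.22, 2.63, 2.61 and 1.39 FPKM in KO5 to KO8. KO6 and KO7 lay just above WT2 and WT4, and KO5 and KO8 below every wild type. On the log2 scale the change was -0.38 ± 0.20 (SE; limma, p = 0.0895, adjusted p = 0.487; exact permutation p = 0.171). Tfeb (ENSMUSG00000023990, chromosome 17, 47737030 to 47792419), at a higher level, read 18.98, 28.0, 33.2 and 20.4 FPKM in the wild types and 24.9, 22.9, 24.9 and 19.1 FPKM in the knockouts. All 4 knockouts lay within the wild-type range. The log2 change was -0.10 ± 0.20 (SE; limma, p = 0.625, adjusted p = 0.822; exact permutation p = 0.629), and it was 0.04 with median-ratio scaling.

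Both factors bind the CLEAR element, whose core is the palindrome CACGTG, and the windows around the starts of the members were searched for it. RefSeq windows (GRCm38.p6, 250 bases before to 50 after each start, 36 windows) were found for 30 of the 38 members, Map1lc3b among them. CACGTG, which reads the same on both strands, was in 10 of the 36 windows, 27.8%, against 7.15% of all 32851 windows. In the 99 windows found for the further autophagy and lysosome genes described below, it was in 18, 18.2%. By step it was in 5 of 9 lysosomal windows, 3 of 6 windows of conjugation enzymes, 1 of 6 of initiation genes, 1 of 6 of cargo receptors, and in none of the 4 windows of LC3 and GABARAP proteins or the 5 of the transcription factors. With a flanking T, as TCACGTG on either strand, which contains CACGTG, it was in 7 member windows, 19.4%, against 3.77% of all windows. The share in the 99 further windows was close to that of the members, at 17, 17.2%. The longer TCACGTGA was in 3 member windows, 8.33%, and in 8 further windows, 8.08%, against 0.974% of all windows. A different motif, TGTTTAC, was also searched for on either strand. It was in 0 member windows and 0 further windows, against 3.65% of all windows. The 4 lysosomal members with TCACGTG and the 3 members of other steps that carry CACGTG and whose values are given for each mouse above are shown 5′ to 3′ on the strand of the gene, with CACGTG in capitals.
Lamp1, chr8:13159080-13159171, plus strand: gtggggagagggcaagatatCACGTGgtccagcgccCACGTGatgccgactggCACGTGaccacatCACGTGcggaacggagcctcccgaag
Ctsa, chr2:164833741-164833801, plus strand: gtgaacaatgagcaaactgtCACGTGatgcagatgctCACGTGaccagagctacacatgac
Ctsd, chr7:142387900-142387945, minus strand: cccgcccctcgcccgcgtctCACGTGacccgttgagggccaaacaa
Gaa, chr11:119267803-119267848, plus strand: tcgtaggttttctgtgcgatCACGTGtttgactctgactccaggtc
Atg3, chr16:45158715-45158783, plus strand: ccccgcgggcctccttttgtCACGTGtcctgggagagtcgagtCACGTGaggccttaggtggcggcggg
Atg5, chr10:44268305-44268350, plus strand: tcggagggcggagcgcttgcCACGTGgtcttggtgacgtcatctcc
Bnip3, chr7:138909589-138909634, minus strand: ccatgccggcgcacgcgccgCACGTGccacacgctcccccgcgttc

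Lamp1 held 4 copies, beginning 61, 45, 28 and 15 bases before the start. Ctsa held 1 copy 12 bases before its start and 1 just after it. Ctsd held 2 copies, beginning 245 and 98 bases before its start, and only the nearer copy is shown. Starts here are those of RefSeq and can differ from the ends of the loci given above. The Ctsa window, 164833523 to 164833822, lies inside its locus, as does the stretch shown for Ctsd. These matches are descriptions of letters and not of binding. Of the 10 members with CACGTG, 5 means were higher in knockouts and 5 lower, from -0.46 for Ctsa to 0.44 for Bnip3, with a median of -0.02. The 19 tested members with a window and no CACGTG had a median of -0.10, with 4 higher and 15 lower. Lamp1, with the most copies, averaged 174.6 ± 21.1 FPKM in the wild types and 166.8 ± 30.3 FPKM in the knockouts (SD, n = 4 each).

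The 4 knockouts differed among themselves. KO5 was above all 4 wild types for 13 of 37 members (20% of all tested genes) and KO6 for 15 (31.3%), whereas KO7 was for 2 (8.52%) and KO8 for 0 (8.42%). In the other direction, KO8 was below all wild types for 24 members (58.3% of all tested genes), KO7 for 11 (23.2%), KO5 for 4 (26.7%) and KO6 for 3 (17.8%). KO8 was the lowest of the 8 mice for 23 members, 62.2%, against 50.5% of all tested genes, and the median deviation of all tested genes in KO8 was -0.35.

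Bnip3 and Ctsl showed the split among knockouts in size. Ctsl was at 94.0 FPKM in KO5 and 99.6 FPKM in KO6, and at 42.4 FPKM in KO7 and 36.6 FPKM in KO8, against 37.1 to 68.8 FPKM in wild type. The muscle ubiquitin ligase Trim63, whose product tags fibre proteins in atrophy and which is no member, read 426.2, 224.7, 159.8 and 111.6 FPKM in KO5 to KO8 and 111.3 to 145.8 FPKM in wild type. Fbxo32, a second atrophy ligase, read 179.3, 88.0, 51.6 and 22.7 FPKM in KO5 to KO8 and 25.8 to 66.3 FPKM in wild type. Of the other 3 listed atrophy ligases, Fbxo30 was also above every wild type in KO5 and KO6, at 6.08 and 5.56 FPKM against 4.02 to 4.89 FPKM. Fbxo21 and Traf6 were below every wild type in KO5, at 1.87 FPKM against 1.96 to 3.35 FPKM and at 1.63 FPKM against 1.83 to 3.32 FPKM. KO5, the highest mouse for Bnip3, Pink1 and Sqstm1, also had the highest slow-fibre sum, and the part of fibre type in these values was not tested. The knockout columns could not be matched to single labelled mice, so these values were not set against age or body weight. As a median over members, the coefficient of variation between mice was 20.1% in wild type and 23.5% in knockouts, beside 22.9% and 25.96% over all tested genes.

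**Figure D3:**
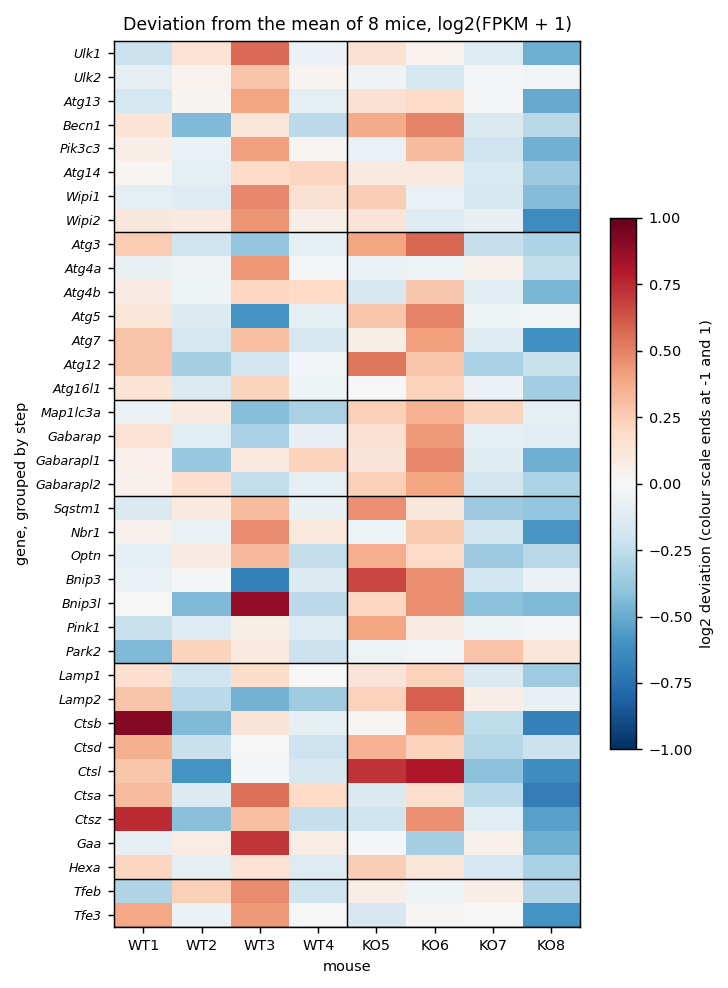
Deviation of each gene in each mouse from its mean over the 8 mice, as log2(FPKM + 1), with genes grouped by step and a vertical line between genotypes. KO8 is low for most genes, KO5 and KO6 are high for Bnip3 and Ctsl, WT1 for Ctsb and Ctsz, and WT3 is low for Bnip3 and high for Bnip3l.

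The steps did not deviate alike within a mouse. In WT3 the median deviation was 0.40 for initiation genes and -0.28 for the LC3 and GABARAP proteins, while that of all tested genes was 0.16. In KO6 it was 0.41 for the LC3 and GABARAP proteins and 0.07 for initiation genes, with 0.14 over all tested genes. In KO8 the initiation and lysosomal medians, -0.46 and -0.49, were below the all-gene median, and that of the LC3 and GABARAP proteins, -0.21, was above it.

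**Figure D4:**
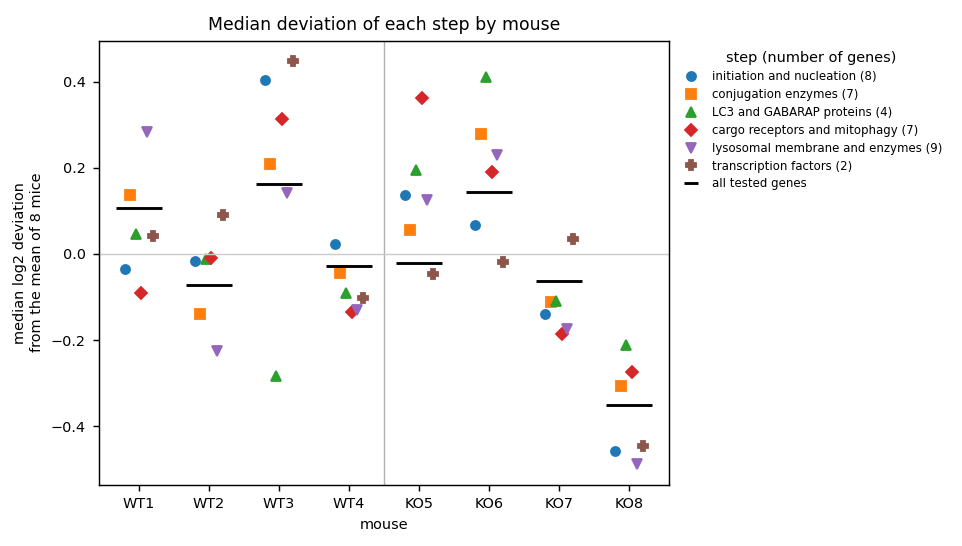
Median log2 deviation from the mean of 8 mice for the genes of each step (symbols, number of genes in the legend) and for all tested genes (black bars), by mouse. LC3 and GABARAP proteins lie below the all-gene bar in WT3 (-0.28 against 0.16) and above it in KO5, KO6 and KO8.

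The changes of the members also went with transcript length. Across the 37 members, Spearman's rho between the log2 change and the length of the longest coding transcript was -0.44, beside -0.38 over 107 other autophagy and lysosome genes and -0.28 over 11024 tested genes with a length. Genes are not independent replicates, and each value comes from the same 8 libraries. The 19 members at or under the median length of 3257 bases had a median log2 change of -0.0011, and the 18 longer ones -0.18. The 4 LC3 and GABARAP transcripts were among the short ones, and the initiation transcripts were among the long ones except that of Pik3c3, which lay at the median itself. The part of length or GC content in the differences between steps was not tested. With a trend on length and GC content removed from each library, a step chosen after the data were seen, 25 members were higher and 12 lower, and none passed. This step also removes the general offset of each library. Of all tested genes, 46.0% were above 0 after it, against 36.4% before. Median-ratio scaling, which uses neither length nor GC content, already gave 23 members higher and 14 lower. The part of length or GC content in the shift was not tested.

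**Figure D5:**
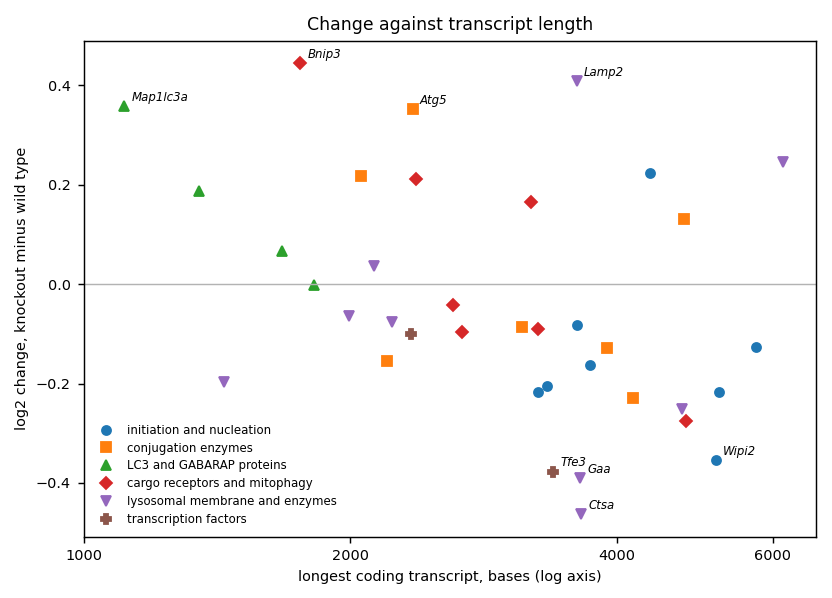
Log2 change (knockout minus wild type) of the 37 genes against the length of their longest coding transcript on a log axis, with symbols by step and names for the larger changes. Short LC3 and GABARAP transcripts lie at or above 0 and most long initiation transcripts below it (rho of -0.44 across the members).

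The rest of the pathway was read from 111 further genes, of which 107 were tested. None passed, and 9 had an unadjusted p under 0.05, 3 higher and 6 lower in knockouts, against 2.99% and 7.33% of all tested genes. Of 26 tested genes of initiation, membrane supply and fusion, the 2 with the smallest p were Stx17, the fusion SNARE of autophagosomes, at 4.65 ± 0.586 and 2.92 ± 0.669 FPKM in wild types and knockouts, and Trp53inp2, an autophagy cofactor abundant in muscle, at 118.9 ± 30.1 and 76.1 ± 11.1 FPKM (SD, n = 4 each). In both, all 4 knockouts lay below all 4 wild types (log2 changes of -0.54 and -0.62; limma adjusted p = 0.480 for each; exact permutation p = 0.0286, the smallest possible). Of 14 further cargo receptor and mitophagy genes, Fam134b, a receptor for the endoplasmic reticulum, read 44.9 ± 9.09 and 77.8 ± 24.2 FPKM (log2 change 0.75, limma adjusted p = 0.480), with KO5 and KO6 at 97.6 and 99.2 FPKM and KO7 and KO8 at 51.2 and 63.3 FPKM. Wdfy3, an adaptor for protein aggregates, read 1.67 ± 0.496 and 1.117 ± 0.318 FPKM (limma adjusted p = 0.523).

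Of 35 further hydrolases and cofactors, the protease Ctsk read 8.47 ± 1.58 and 5.58 ± 0.637 FPKM in wild types and knockouts, and Psap, the precursor of the saposins, 263.6 ± 51.1 and 188.9 ± 41.4 FPKM (limma adjusted p = 0.480 and 0.482). Of 15 further membrane proteins, the tetraspanin Cd63 read 109.7 ± 13.1 and 149.3 ± 25.5 FPKM and Scarb2, the transporter of glucocerebrosidase, 21.8 ± 3.70 and 15.9 ± 2.30 FPKM (limma adjusted p = 0.480 for each). The genotypes did not overlap in either, with Cd63 higher and Scarb2 lower in knockouts. Of 17 subunits and accessory proteins of the proton pump, 9 means were higher and 8 lower. Those with the smallest p were Atp6ap2, at 9.79 ± 1.71 and 13.6 ± 3.58 FPKM, and Atp6v0e, at 88.1 ± 41.3 and 134.1 ± 34.2 FPKM (limma adjusted p = 0.484 for each). In all 107, 6 genes had genotypes that did not overlap, 1 higher (2.08% of all tested genes) and 5 lower (4.68%).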

How the data were processed

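Total RNA of 8 gastrocnemius muscles was made into TruSeq v2 libraries and sequenced as single reads over 50 cycles, per the labels' protocols. The authors aligned reads to mm10 with TopHat 2.0.9 and deposited FPKM from Cufflinks (2.0.2 per the labels' protocols, 2.2.1 per the submitters' processing notes, so the version is uncertain). The annotation is not given, nor is a strand setting, in the sources used here. Flags of 0 or 1 for a p-value of the authors are deposited beside them. FPKM carry no read totals, so no counting interval is given.

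Columns WT1 to WT4 matched labelled mice. KO5 to KO8 matched the knockout group only. The highest-mean row of each symbol was used, genes with a mean of at least 1 FPKM were kept, and log2(FPKM + 1) was tested with limma 3.58.1 (trend, R 4.3.3), genotype as the only term, Benjamini-Hochberg over 11118 genes, threshold 0.05. The script was tested on simulated data. Exact permutation tests were 2-sided. Relative depth came from the mode of log2 ratios of FPKM under 0.3 to WT2. Positions are the deposited start plus 1. Lengths and overlaps came from GENCODE M21, promoters from RefSeq.

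Per-mouse values and tests are given for the member of each step with the smallest p and with the highest mean, and for the 2 genes of each further list with the smallest p. Alternatives changed the pseudocount, the filter, the scaling, the rows, the model or the mice used. The members and lists were chosen with earlier results of these data known.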

Additional observations from a re-analysis of the deposited data

Results flagged for a closer look

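In 4 of the 74 groups of 4 mice checked (37 genes in each genotype), 1 mouse stood far from the other 3 by the gap between it and its nearest neighbour relative to the whole range. Chance gives about 1 such group in 20. High values of WT3 made up 3 of them: Wipi2 at 9.05 FPKM, Atg4a at 9.20 FPKM and Gaa at 73.7 FPKM. The other was the low Ulk2 value of KO6, at 20.02 FPKM.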

How the results depend on the processing

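No member passed the adjusted threshold in any of 20 alternatives, where the smallest adjusted p was 0.356. Of 735 values of members under alternatives, 69 changed sign, in 18 of 37 members. Ctsd changed to -0.11 with quantile scaling, and with 1 mouse left out it ran from -0.072 to 0.16, below 0 without WT2, WT4, KO5 or KO6. Tfeb changed to 0.044 with median-ratio scaling, 0.065 with array weights and 0.026 with the length and GC trend removed, and with 1 mouse left out it ran from -0.22 to 0.040, above 0 without WT3. Wdfy3 changed to 0.044 with the trend removed. Members with an unadjusted p under 0.05 are given with the share of all tested genes in parentheses. They numbered 1 with no filter (1 higher; 6.91%), 6 with median-ratio scaling (5 higher, 1 lower; 11.9%), 4 with quantile scaling (2 higher, 2 lower; 11.3%), 2 with array weights (2 higher; 12.7%), 2 without WT1 and KO6 (1 higher, 1 lower; 10.4%) and 1 with the trend removed (1 higher; 10.1%). With 1 mouse left out they numbered 0 to 2, with 0 to 1 higher and 0 to 2 lower (4.99% to 12.1%). Members whose genotypes did not overlap numbered 1 with median-ratio scaling (6.49% of all tested genes), 7 without WT1 and KO6 (19.4%), and 0 to 4 with 1 mouse left out (7.15% to 14.1%). The count of all genes past the threshold was 1 with zeros set to missing, 10 without WT1 and KO6, and 3 to 8 with 1 mouse left out. The median member change, -0.09, was 0.05 with median-ratio scaling or array weights, 0.06 with the trend removed and -0.16 to 0.03 with 1 mouse left out. The causes of these shifts were not tested. No paired analysis was possible because the knockout columns carry no labelled replicate numbers. The 4 mice of each genotype limit the precision, and depth in reads is unknown.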
